A study of Mus musculus with 18 samples.

Results

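The genes described here encode 10 neuropeptides of the hippocampus, namely Grp, Npy, Sst, Vip, Cck, Pdyn, Tac2, Crh, Cort and Adcyap1, out of 55385 genes in the deposited tables. They were picked by symbol with earlier results of the same libraries in view, so their cKO and WT values are given as a description, with no p-value of their own. Neuropeptides are cut from larger precursors in the secretory pathway, packed into dense-core vesicles and released to act on G protein-coupled receptors, often at a distance from the release site. In the adult hippocampus Npy, Sst, Vip and Cort are mostly products of GABAergic interneurons, Cck is made by a class of basket cells and by pyramidal cells, and Pdyn by dentate granule cells, which makes these transcripts marks of cell classes as well as signals.

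The hippocampus of C57BL/6 mice was profiled with and without a conditional knockout (cKO) of Arid1a, whose product belongs to BAF, the mammalian SWI/SNF complex that moves nucleosomes. The RNA groups were cKO at postnatal day 21 (P21, 2 libraries), wild type (WT) at P21 (2 libraries), cKO at embryonic day 16.5 (E16.5, 3 libraries) and WT at E16.5 (3 libraries). Chromatin immunoprecipitation (ChIP) was done at 3 weeks of age on cKO and WT hippocampus, a single library of each genotype being made for input, H3K4me3 (typical of promoters), H3K27ac (typical of enhancers and promoters in use) and H3K27me3 (set by Polycomb repressive complex 2). The labels name neither the Cre line nor the cells in which Arid1a was deleted, and give no allele for the WT mice. The series design calls the RNA replicates biological, and ChIP had none.

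The P21 libraries summed to between 20089631 and 20332148 estimated counts, and the E16.5 libraries to between 17662335 and 19760764. Arid1a, the check of the labels, had 1778 and 2281 counts in cKO against 4089 and 4291 in WT at P21, and 3100 to 3527 in cKO against 4983 to 5560 in WT at E16.5. By Xist, P21 replicate 1 and E16.5 replicate 3 were male in both genotypes and the others female. Over all genes, edgeR's quasi-likelihood test with Benjamini-Hochberg adjustment called 489 of 17407 genes higher and 680 lower in cKO at P21, a split that upper-quartile scaling turned to 570 and 519. At E16.5 it called 2 genes higher and 19 lower of 16958. WT replicate 1 at E16.5 stood apart: 84 genes there were at least 4-fold above all other E16.5 libraries, against 0 to 3 in each of the others. Summed markers of choroid plexus and ependyma differed among the E16.5 libraries, at 7.40, 48.2 and 2443 CPM in cKO and 4716, 3201 and 40.7 CPM in WT, so values of every library are given below. Levels are in CPM, the counts scaled to a common library size after TMM normalization, and they are not compared between genes, since no transcript lengths were used.

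Promoters of 4 of the genes are shown, whose overlap with H3K27me3 peaks is given below. Each is the 250 bases before the transcript start, 5′ to 3′ on the gene's strand, from RefSeq (GRCm38.p6). They are chr6:49822460-49822709 (Npy, + strand), chr16:23890845-23891094 (Sst, − strand), chr9:121495695-121495944 (Cck, − strand) and chr2:129699939-129700188 (Pdyn, − strand, the outer of its 2 starts). Capitals mark the cAMP response element (CRE) TGACGTCA, its core TGACG on either strand, and the TATA motif TATAAA.
Npy: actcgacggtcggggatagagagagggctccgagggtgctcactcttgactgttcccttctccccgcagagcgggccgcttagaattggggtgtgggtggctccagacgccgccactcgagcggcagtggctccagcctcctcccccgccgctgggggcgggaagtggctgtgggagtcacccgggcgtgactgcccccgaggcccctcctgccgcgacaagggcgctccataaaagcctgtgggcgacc
Sst: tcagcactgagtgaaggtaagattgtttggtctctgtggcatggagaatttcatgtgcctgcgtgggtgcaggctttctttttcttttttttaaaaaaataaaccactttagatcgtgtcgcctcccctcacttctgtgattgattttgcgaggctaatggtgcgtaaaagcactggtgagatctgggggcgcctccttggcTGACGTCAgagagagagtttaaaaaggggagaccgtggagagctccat
Cck: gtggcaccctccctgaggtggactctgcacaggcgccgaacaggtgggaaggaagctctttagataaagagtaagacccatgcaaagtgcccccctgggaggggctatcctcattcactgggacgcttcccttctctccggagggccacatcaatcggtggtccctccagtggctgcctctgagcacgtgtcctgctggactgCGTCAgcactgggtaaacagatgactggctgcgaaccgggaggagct
Pdyn: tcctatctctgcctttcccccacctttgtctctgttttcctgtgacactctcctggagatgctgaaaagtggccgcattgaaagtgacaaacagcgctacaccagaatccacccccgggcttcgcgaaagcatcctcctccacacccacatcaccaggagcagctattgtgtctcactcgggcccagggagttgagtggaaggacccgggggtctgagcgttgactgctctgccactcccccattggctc
The Sst promoter had a full CRE beginning 48 bases before the start, a motif present in 1.55% of the 32841 promoters of the table. The element is known as a binding site of CREB, which carries cAMP signals to transcription. The core (17.8% of promoters) lay 47 bases before the Cck start and 79 bases before the Vip start. It also lay 18 bases before the Cort start and 91 bases before the outer Adcyap1 start. Neither the Npy nor the Pdyn window held a CRE or its core. None of the 4 printed windows held TATAAA (12.4% of promoters). Of the windows not printed, that of Vip held 3 matches and that of the inner Adcyap1 start 1. The Npy window had 21 CpG dinucleotides, more than 83.6% of promoters, against 8 in Sst, 9 in Cck and 8 in Pdyn and a median of 6.

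Among the 10 peptides, Grp and Pdyn were lower in cKO at P21 and called over all genes, and Grp was lower at E16.5 as well, by far the widest gap of the set. Of the 10 genes tested at P21, 0 were called higher and 2 lower, where 2.81% of all genes were called higher and 3.91% lower (6.72% in all). At unadjusted p under 0.05 these counts were 4 and 4, against 2036 higher and 2295 lower of all 17407 genes. DESeq2 called 1 higher (Npy) and 2 lower, against 502 and 829 over all genes. The median change of the 10 was 0.43 on the log2 scale against 0.01 for all genes. At E16.5 8 of the 10 had enough counts for the test, and 0 were called higher and 1 lower (background 0.0118% and 0.112%, or 0.124% in all). At unadjusted p under 0.05 there were 0 and 3, against 1548 and 1951 of all 16958 genes. DESeq2 called 3 lower there (Grp, Cck and Tac2), against 412 higher and 731 lower over all genes, and the median was -0.65 against -0.01 for all genes. These calls chose the genes in part, so nothing is read from the counts. The counts over all genes given here are also the background for the gene lists below. In whole tissue, fewer cells that make a peptide and less RNA per cell cannot be told apart.

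**Figure D1:**
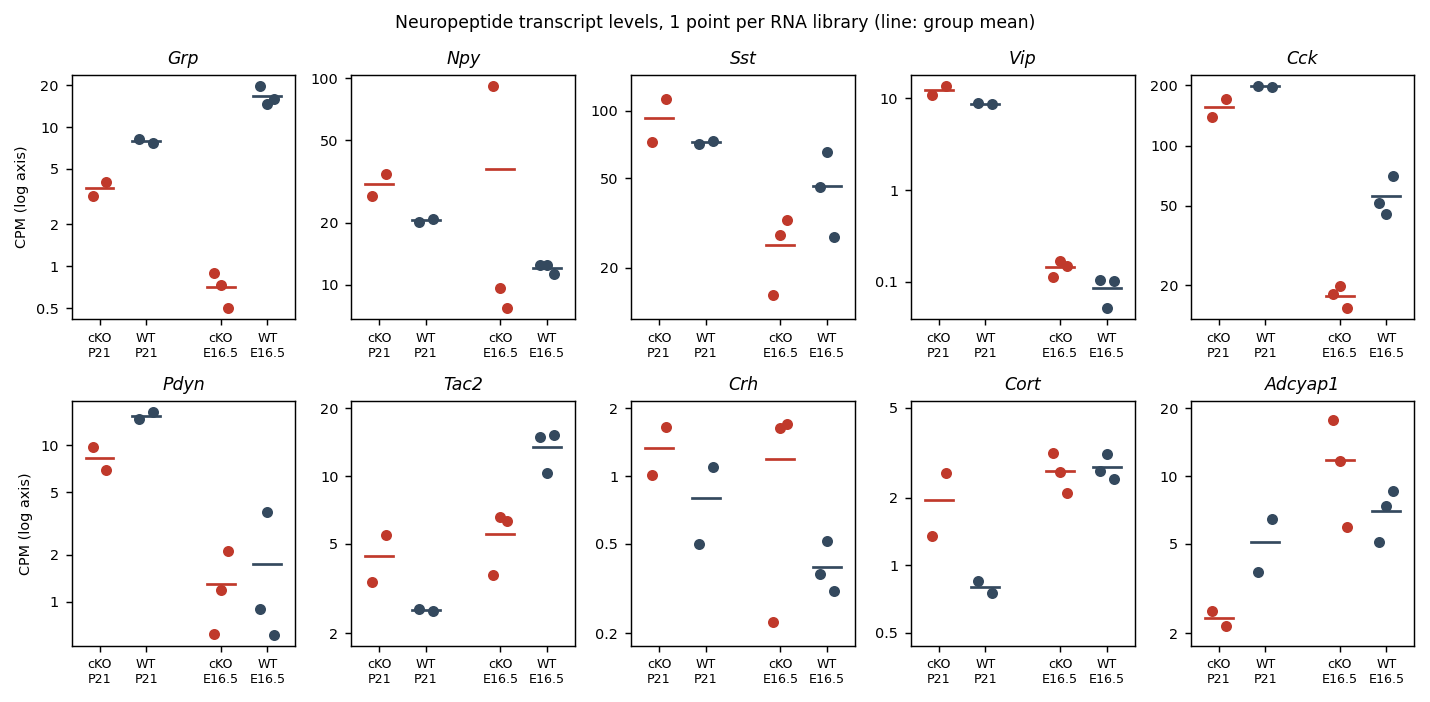
Transcript level of each peptide in CPM (log axis, scales differ between panels), 1 point per library and a line at the group mean, cKO in red and WT in dark blue. Grp in the 3 cKO libraries at E16.5 lies between 0.50 and 0.90 CPM, against 14.7 to 19.8 CPM in WT, while Npy is at 92.0 CPM in a single cKO library.

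Grp encodes gastrin-releasing peptide, a bombesin-like peptide that signals through the receptor Grpr. At E16.5 it had 0.90, 0.74 and 0.50 CPM in the cKO libraries, against 19.8, 14.7 and 15.8 CPM in the WT libraries. These rest on 16, 13 and 10 counts in cKO and 377, 286 and 309 counts in WT. All 3 cKO libraries were far below all 3 WT libraries, and the cKO mean was 4.23% of the WT mean (log2 change -4.56, SE 0.26). Marker sets moved with this gap at E16.5. Meningeal fibroblast markers summed to 10.7, 23.2 and 75.6 CPM in cKO against 1100, 121 and 226 CPM in WT, with 6 of 6 below zero (median log2 change -3.73) and 0 called. Dentate granule cell markers summed to 27.3, 76.8 and 76.5 CPM in cKO against 130, 115 and 110 CPM in WT, with 5 of 6 tested below zero (median -0.64) and 0 called. Both sums were lower in every cKO library than in every WT library, and no gene of either set was at zero counts. The mean of log2(CPM + 0.5) of the dentate set overlapped, at 1.47, 2.15 and 2.51 in cKO against 2.86, 2.76 and 2.42 in WT. Sums of cortical hem and Cajal-Retzius markers, peptide processing genes and other neuropeptide genes were also lower in every cKO library. Of these lists, only the processing genes stayed lower in mean log2(CPM + 0.5), at 4.89, 5.34 and 5.51 in cKO against 5.59, 5.84 and 5.68 in WT. The hem and Cajal-Retzius set overlapped, at 2.91, 4.55 and 4.49 in cKO against 4.72, 4.42 and 4.54 in WT. So did the other neuropeptides, at 0.45, 0.65 and 0.89 in cKO against 0.86, 1.05 and 0.79 in WT. The CA pyramidal sum was higher in every cKO library (288 to 536 CPM, against 226 to 285 CPM in WT), and sums of the remaining sets overlapped. The mean log2(CPM + 0.5) of the CA pyramidal list was not higher, at 3.16, 3.46 and 3.53 in cKO against 3.44, 3.66 and 3.53 in WT. Of its 9 genes tested 4 lay above zero and 5 below, with a median log2 change of -0.08 and 0 called. The part of these cell types in the Grp value, and in the values of Cck and Tac2 at that age, was not tested. At P21 the gap was smaller but in the same direction, with 3.18 and 4.06 CPM in cKO against 8.16 and 7.72 CPM in WT. The cKO mean was then 45.6% of WT (log2 change -1.13, SE 0.22). The cKO effect was 3.39 log2 units less negative at P21 than at E16.5 (SE 0.35), a difference that was among the 1.16% of genes called for a change of effect between ages (81 higher and 140 lower, or 97 and 97 under upper-quartile scaling).

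The Grp change kept its direction in every setting tried, but its call did not. At P21 the log2 change ranged from -1.32 to -0.96 over 11 alternatives and was called in 8, not without WT replicate 1, without WT replicate 2, or in 1 fit of all 10 libraries. At E16.5 it ranged from -4.74 to -4.35 over 14 alternatives and was called in 10, not with the replicate number as a block or without cKO replicate 2, WT replicate 1 or WT replicate 3. In the authors' deposited table Grp was under an adjusted p of 0.05 at both ages, as were Pdyn at P21 and Cck and Tac2 at E16.5, where 4.18% of its genes passed at P21 and 3.19% at E16.5.

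Grpr, the receptor of Grp, had 0 to 4 counts a library and was not tested at either age. Over the 6 E16.5 libraries, the 5 genes whose log2 CPM followed Grp most closely, of 12352 genes, were Ezh1, Inka2, Agrn, Ksr1 and Usp12 (Pearson r 0.991 to 0.996). The points are 3 libraries of each genotype, which Grp itself separates widely. Of these, Inka2 had the widest gap, at 5.94, 5.99 and 6.10 CPM in cKO against 21.6, 19.7 and 23.8 CPM in WT, and Ezh1, a Polycomb H3K27 methyltransferase, a narrow one, at 30.2 to 31.2 CPM in cKO against 36.5 to 38.1 CPM in WT. Over the 4 P21 libraries 232 of 12172 genes reached an r of 0.99 with Grp.

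Among the interneuron peptides, Npy, Vip, Tac2 and Cort were higher in both cKO libraries than in both WT libraries at P21, and none of the 4 was called. Groups did not overlap in the higher direction for 28.2% of all genes at that age, and in the lower direction for 27.9% (56.1% in all). Npy, neuropeptide Y, which dampens glutamate release through Y2 receptors, had 27.04 and 34.2 CPM in cKO against 20.03 and 20.9 CPM in WT (log2 change 0.58, SE 0.15). It was called in 4 of 11 alternatives, which were DESeq2, upper-quartile scaling, no filter, and leaving out cKO replicate 1. At E16.5 Npy had 92.0, 9.67 and 7.70 CPM in cKO, against 12.5, 12.5 and 11.3 CPM in WT. A single cKO library thus held a 7.35-fold higher level than any other E16.5 library, and the other two cKO libraries lay below WT. The fitted change there was 1.59 (SE 0.98) with cKO replicate 1 and -0.46 without it.

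Sst encodes somatostatin, the peptide of dendrite-targeting interneurons. At P21 it had 72.7 and 113 CPM in cKO, against 71.2 and 73.6 CPM in WT. The groups overlapped, as the first cKO library was level with WT (log2 change 0.36, SE 0.21). At E16.5 Sst had 15.1, 27.9 and 32.7 CPM in cKO, against 46.0, 65.4 and 27.5 CPM in WT (log2 change -0.87, SE 0.40, not called). The male WT library was the low one, below the male cKO library. Cort encodes cortistatin, a relative of somatostatin that binds the same receptors. It had 1.35 and 2.56 CPM in cKO and 0.85 and 0.75 CPM in WT at P21, from 15 to 51 counts a library (log2 change 1.28, SE 0.43). At E16.5 Cort was level, at 2.10 to 3.14 CPM in cKO and 2.41 to 3.13 CPM in WT (log2 change -0.06, SE 0.25). The gene lies 15.4 Mb from Arid1a on chromosome 4, and a part of that linkage in its values was not tested.

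Vip encodes vasoactive intestinal peptide, made by interneurons that inhibit other interneurons. At P21 it had 10.99 and 13.8 CPM in cKO against 8.81 and 8.77 CPM in WT (log2 change 0.49, SE 0.18). At E16.5 each library held 1 to 3 counts of Vip in both genotypes, too few for a comparison. Tac2 encodes neurokinin B, the ligand of the receptor Tacr3. At P21 it had 3.37 and 5.47 CPM in cKO against 2.55 and 2.51 CPM in WT (log2 change 0.80, SE 0.30). At E16.5 it had 3.65, 6.56 and 6.30 CPM in cKO against 14.9, 10.3 and 15.2 CPM in WT (log2 change -1.29, SE 0.28). The groups did not overlap at either age and lay in opposite directions, and the difference of 2.06 log2 units between ages (SE 0.46) was not called. Crh encodes corticotropin-releasing hormone, a stress peptide made by interneurons of the young hippocampus. Its levels were low, at 1.01 and 1.65 CPM in cKO and 0.50 and 1.10 CPM in WT at P21, where the groups overlapped. At E16.5 the cKO libraries held 4, 29 and 34 counts and the WT libraries 7, 10 and 6, and it was not tested.

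Interneuron genes that are no peptides were measured beside these. Of 21 such genes (Gad1, Gad2, Lhx6 and others) 0 were called at P21 by edgeR, with 4 higher and 3 lower at unadjusted p under 0.05 and 1 called by DESeq2, and their median change was 0.06. Their summed level was 1333 and 1398 CPM in cKO against 1329 and 1292 CPM in WT. Of 20 tested at E16.5 0 were called, with 2 higher and 2 lower at unadjusted p under 0.05 and 3 called by DESeq2, and the median was -0.01. Striatal markers, of which 4 of 11 were called higher and 0 lower at P21, summed to 282 and 370 CPM in cKO against 212 and 239 CPM in WT with 0 genes at zero counts. Thalamic markers had 8 of 8 tested above zero and 1 called higher at P21. They summed to 270 and 190 CPM in cKO against 153 and 154 CPM in WT. Neocortex markers summed to 207 and 229 CPM in cKO against 184 and 198 CPM in WT, with 1 called higher and 1 lower. Choroid plexus and ependyma markers had 2 of 8 called higher and 0 lower, and their sums overlapped. Hypothalamic markers summed to 1.003 to 2.16 CPM in the P21 libraries of both genotypes. The part of RNA from these tissues in the peptide values was not tested.

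Cck, Pdyn and Adcyap1, peptides with sources among excitatory cells, had lower levels in both cKO libraries than in both WT libraries at P21. Pdyn encodes prodynorphin, the precursor of dynorphins, which act on the kappa opioid receptor Oprk1. It had 9.74 and 6.92 CPM in cKO against 14.7 and 16.3 CPM in WT, the cKO mean being 53.7% of WT (log2 change -0.90, SE 0.20, called lower). The call was lost in 4 of 11 alternatives (upper-quartile scaling, 1 fit of all 10 libraries, and leaving out either WT library), with the change between -1.16 and -0.67. Dentate granule cell markers, a class that makes dynorphin, moved with it: 5 of 7 were called lower and 0 higher at P21, and they summed to 236 and 240 CPM in cKO against 467 and 501 CPM in WT. None of the 7 was at zero counts in a P21 library. The part of granule cell number in the Pdyn value was not tested. At E16.5 Pdyn had 11 to 42 counts in cKO and 12 to 73 in WT, and the groups overlapped.

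Cck encodes cholecystokinin, the peptide of a basket cell class and of many pyramidal cells. At P21 it had 140 and 172 CPM in cKO against 199 and 196 CPM in WT (log2 change -0.35, SE 0.12, not called). CA pyramidal cell markers did not fall with it at P21: 4 of 10 were called higher and 1 lower, with a median log2 change of 0.42. They summed to 896 and 1246 CPM in cKO against 740 and 690 CPM in WT. Their part in the Cck value was not tested. The Cck gap was wider at E16.5, with 18.1, 19.7 and 15.3 CPM in cKO against 51.4, 45.6 and 70.2 CPM in WT. Every cKO library was below every WT library, and the cKO mean was 31.8% of WT (log2 change -1.65, SE 0.19). Groups did not overlap in the lower direction for 15.3% of all genes at E16.5, and in the higher direction for 14.0% (29.2% in all). edgeR did not call Cck, whereas 4 of 14 alternatives did, DESeq2 among them.

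Adcyap1 encodes PACAP, a peptide of the vasoactive intestinal peptide family that raises cAMP in its target cells. At P21 it had 2.51 and 2.16 CPM in cKO against 3.76 and 6.47 CPM in WT (log2 change -1.13, SE 0.32, not called). The 2 WT libraries differed widely from each other. At E16.5 it had 17.7, 11.6 and 5.95 CPM in cKO against 5.102, 7.34 and 8.62 CPM in WT (log2 change 0.74, SE 0.42), and the groups overlapped. The highest value came from cKO replicate 1, the library with the high Npy. That library also had the highest summed neocortex markers of the E16.5 libraries (640 CPM, against 340 to 455 CPM). The mean log2 level of the same markers was the lowest there (3.61, against 3.67 to 4.1), so the list was not higher as a whole. Its CA pyramidal sum was also the highest (536 CPM, against 226 to 338 CPM), again with the lowest mean log2 level (3.16, against 3.44 to 3.66). Its summed dentate markers were the lowest of the 3 cKO libraries (27.3 CPM, against 76.5 and 76.8 CPM). All 3 cKO dentate sums were below those of the 3 WT libraries (110 to 130 CPM).

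**Figure D2:**
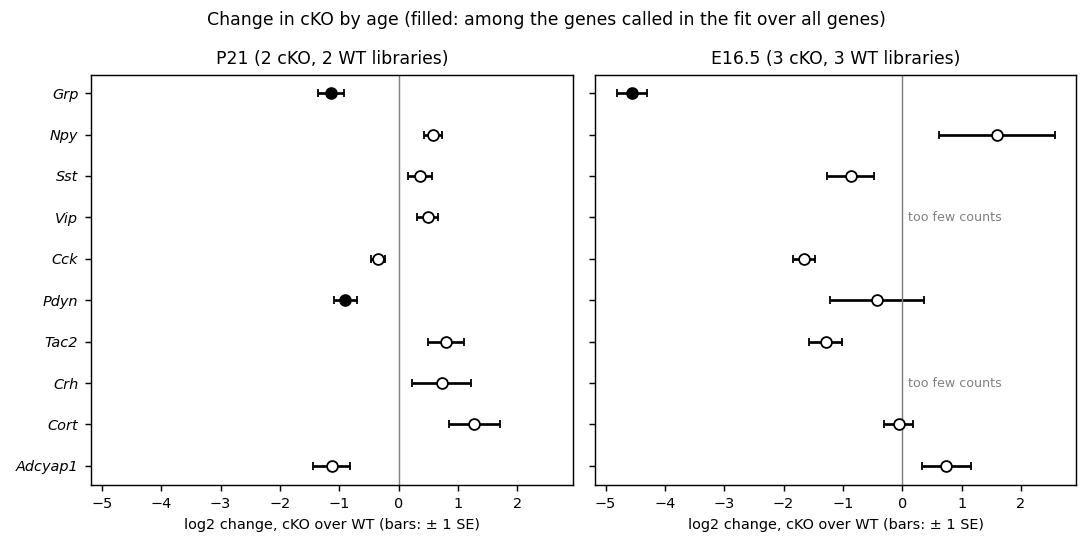
log2 change of cKO over WT for each peptide, P21 on the left and E16.5 on the right, with bars of 1 SE from the fit over all genes and filled points for genes called there. Grp is at -1.13 at P21 and -4.56 at E16.5, and Pdyn is the other filled point at P21.

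In WT hippocampus the peptides differed widely by age, a contrast that the choice of genes did not use. The same WT libraries did enter the cKO comparisons known at the choice. The p-values below are therefore not independent of it, in particular for Grp, which was far above cKO in WT at E16.5. Age cannot be told apart from the separate tables and library sets of the 2 ages. Of the 10 genes 3 were called higher and 3 lower at P21 than at E16.5, where 27.8% of all genes were called higher and 32.6% lower (60.4% in all). The median of all genes was -0.12 under TMM scaling and -0.02 under DESeq2's size factors, and none of the 6 calls below changed with that scaling, though DESeq2's own test also called Sst higher. Vip had the greatest rise, to 351 counts over the 2 WT libraries at P21 against 5 over the 3 WT libraries at E16.5. The ratio of the levels was 116, with an exact 95% interval from 49.2 to 359 for counting error (edgeR adjusted p = 3.111e-07). Pdyn rose to a mean of 16.7 CPM at P21 against 1.66 CPM at E16.5, on the scale of all 10 libraries (log2 3.33, SE 0.70, edgeR adjusted p = 0.003314). Cck rose to 213 CPM at P21 against 52.9 CPM at E16.5 (log2 2.01, SE 0.19, edgeR adjusted p = 2.124e-05).

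The 3 peptides lower at P21 were Tac2, Cort and Grp. Tac2 fell to 2.73 CPM at P21 against 12.8 CPM at E16.5 (log2 -2.22, SE 0.34, edgeR adjusted p = 0.0004599). Cort fell to 0.865 CPM at P21 against 2.58 CPM at E16.5 (log2 -1.57, SE 0.36, edgeR adjusted p = 0.004543). Grp fell to 8.57 CPM at P21 against 15.9 CPM at E16.5 (log2 -0.89, SE 0.23, edgeR adjusted p = 0.00847), and this call was lost without WT replicate 2 at P21. Npy (log2 0.94, SE 0.92), Sst (0.83, SE 0.40), Crh (1.19, SE 0.76) and Adcyap1 (-0.28, SE 0.44) were not called, and the fit shares its spread with the cKO libraries, Npy's high one included. Without cKO replicate 1 at E16.5, the library with the high Npy, Npy was called higher at 0.997 and Crh at 1.24. Sst was called higher at 1.16 without WT replicate 2 at E16.5.

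Receptors of these peptides were mixed in cKO at P21: 1 of 17 tested rose and 3 fell, with a median of -0.21 against 0.01 for all genes. Sstr2, a somatostatin and cortistatin receptor, fell to 6.36 ± 0.48 CPM in cKO against 17.4 ± 0.87 CPM in WT (SD, n = 2 each; log2 change -1.45, SE 0.16, edgeR adjusted p = 0.00425). Sstr2 was the only one of the 4 called in all 11 alternatives. Sstr1 (log2 -0.83, SE 0.24), Sstr3 (-0.10, SE 0.22) and Sstr4 (-0.21, SE 0.20) were not called. Vipr1, a receptor shared by Vip and PACAP, fell to 16.1 ± 3.6 CPM in cKO against 26.9 ± 1.7 CPM in WT (SD, n = 2 each; log2 change -0.75, SE 0.17, edgeR adjusted p = 0.0425). Vipr2, the other shared receptor, had 9 and 11 counts in cKO against 16 and 16 in WT (log2 change -0.70, SE 0.44, not called). Adcyap1r1, the PACAP-preferring receptor, fell to 152 ± 7.6 CPM in cKO against 216 ± 24 CPM in WT (SD, n = 2 each; log2 change -0.50, SE 0.12, edgeR adjusted p = 0.0447).

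Oprk1, the dynorphin receptor, rose to 2.29 ± 0.24 CPM in cKO against 0.652 ± 0.28 CPM in WT (SD, n = 2 each; log2 change 1.80, SE 0.41, edgeR adjusted p = 0.0421), from 9 to 49 counts a library. Its ligand's transcript was lower in the same libraries in which its own was higher. Tacr3, the neurokinin B receptor (log2 1.49, SE 0.37), Npy1r (-0.43, SE 0.15), Npy2r (0.37, SE 0.15), Cckbr (0.24, SE 0.24) and Crhr1 (-0.54, SE 0.23) were not called. The calls of Oprk1, Vipr1 and Adcyap1r1 were each lost in 1 fit of all 10 libraries and without WT replicate 1 or WT replicate 2. Oprk1 was also lost without cKO replicate 2 and with DESeq2, Vipr1 and Adcyap1r1 under upper-quartile scaling, and Adcyap1r1 with the replicate number as a block. At E16.5 0 of 13 receptors were called by edgeR, with 1 higher and 1 lower at unadjusted p under 0.05 and 2 called by DESeq2. Those nearest to a call were Sstr3, lower in cKO (log2 change -1.23, SE 0.25, edgeR adjusted p = 0.138), and Vipr1, higher in cKO with 3.76 ± 1.4 CPM against 1.22 ± 0.13 CPM in WT (SD, n = 3 each; log2 change 1.61, SE 0.34, edgeR adjusted p = 0.139).

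Genes that process and store peptides rose in part at P21, with 2 of 16 called higher, 0 called lower (5 higher and 1 lower at unadjusted p under 0.05) and a median of 0.15. Cpe, the carboxypeptidase that trims peptide precursors, rose to 2968 ± 130 CPM in cKO against 1837 ± 24 CPM in WT (SD, n = 2 each; log2 change 0.69, SE 0.11, edgeR adjusted p = 0.0121). Scg5, the chaperone of the convertase Pcsk2, rose to 207 ± 19 CPM in cKO against 137 ± 8.4 CPM in WT (SD, n = 2 each; log2 change 0.60, SE 0.11, edgeR adjusted p = 0.0244). Both calls were lost in 1 fit of all 10 libraries and when either WT library was left out. At E16.5 0 of 16 were called by edgeR (0 higher and 6 lower at unadjusted p under 0.05, 4 called by DESeq2), 14 of 16 lay below zero and the median was -0.33 against -0.01 for all genes. Pcsk2, a convertase that cuts many precursors, was closest, with 27.2, 27.3 and 27.4 CPM in cKO against 42.0, 41.5 and 48.1 CPM in WT (log2 change -0.68, SE 0.08, edgeR adjusted p = 0.0508).

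**Figure D3:**
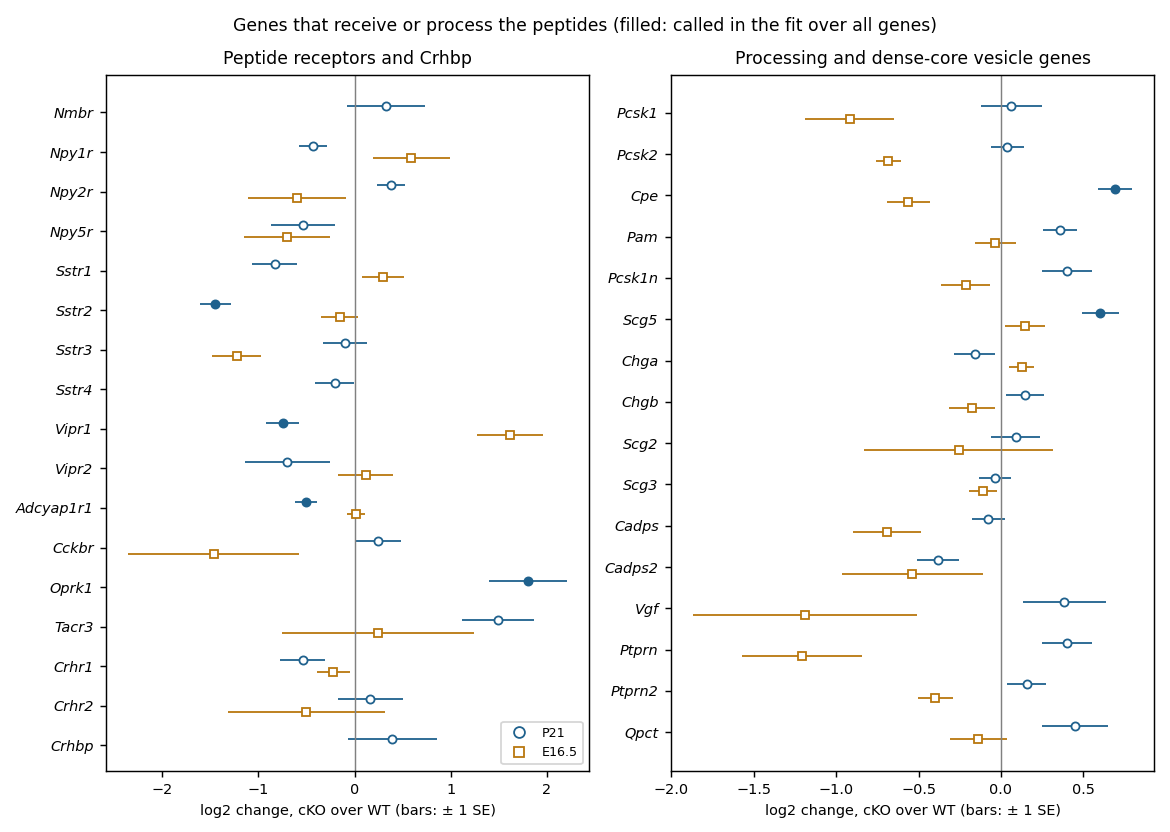
log2 change of cKO over WT for receptors (left) and processing or dense-core vesicle genes (right), with P21 as circles and E16.5 as squares, bars of 1 SE, and filled points for genes called over all genes. Sstr2, Vipr1, Adcyap1r1, Oprk1, Cpe and Scg5 are filled, all at P21.

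In WT, 14 of 16 processing genes were higher at P21 than at E16.5 and 0 lower, and of 17 receptors tested 9 were higher and 4 lower, where 27.8% of all genes were called higher and 32.6% lower. Of 17 other neuropeptide genes 9 had enough counts at P21, of which 1 rose, 0 fell and the median was 1.02 (4 higher and 1 lower at unadjusted p under 0.05). The one called was Nppc, which encodes C-type natriuretic peptide, at 6.25 ± 0.52 CPM in cKO against 2.46 ± 0.28 CPM in WT (SD, n = 2 each; log2 change 1.35, SE 0.24, edgeR adjusted p = 0.0197). The call was lost without WT replicate 2 and in 1 fit of all 10 libraries, and DESeq2 called 3 of the 9. At E16.5 0 of 9 were called by edgeR or DESeq2 and 0 had an unadjusted p under 0.05. Penk, the enkephalin precursor, came closest there, with 2.07 ± 0.84 CPM in cKO against 4.36 ± 1.9 CPM in WT (SD, n = 3 each; log2 change -1.07, SE 0.47, edgeR adjusted p = 0.263).

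At the chromatin level, H3K27me3 peaks lay at more peptide genes in the cKO library than in the WT library. Within 1 kb of the gene, 7 of 10 had an H3K27me3 peak in cKO (Grp, Npy, Sst, Cck, Pdyn, Crh and Adcyap1) against 3 in WT (Npy, Crh and Adcyap1). Of 21887 protein-coding genes with coordinates 16.9% had one in cKO and 4.35% in WT, and 0.032% in WT only. H3K4me3 lay at 5 of the 10 in cKO (Grp, Npy, Cck, Crh and Adcyap1; 65.4% of all genes) and at these and Pdyn in WT (63.7%). H3K27ac lay at Cck alone in both genotypes, where 51.2% of all genes had it in cKO and 36.1% in WT. The peak lists as a whole differed alike, with 15659 H3K27me3 peaks over 13035821 bp in cKO against 4124 over 2860228 bp in WT, from 17399169 and 18009991 tags. With 1 library per genotype there is no test, and the peaks and their fold enrichments over input are the authors'. For the 4 genes with an H3K27me3 peak in cKO only, namely Grp, Sst, Cck and Pdyn, the same held of 12.6% of all genes. None of the 10 had H3K4me3 in cKO only (2.16%), nor H3K27ac in cKO only (15.8%) or in WT only (0.722%).

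Grp had an H3K27me3 peak of 1692 bp in cKO at chr18:65872857-65874548 (GRCm38, fold enrichment 6.75) near the lower-coordinate end of the gene (chr18:65872751-65886599), and none in WT. H3K4me3 was there in both genotypes, over 715 bp in 2 peaks in cKO and 868 bp in 1 peak in WT. In cKO both marks covered the same 715 bp. At Sst an H3K27me3 peak of 1202 bp in cKO at chr16:23890129-23891330 (fold enrichment 8.42) covered all 250 bases of the promoter printed above, the CRE included. WT had no H3K27me3 peak within 1 Mb of Sst in the list, and neither genotype had H3K4me3 or H3K27ac within 1 kb. The Sst transcript of the cKO libraries was level with or above WT at P21.

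Pdyn had H3K27me3 in 3 peaks over 1496 bp in cKO, the longest at chr2:129699221-129700170 (950 bp, fold enrichment 5.41), which covered 232 of the 250 bases of its printed promoter. WT had an H3K4me3 peak of 779 bp at chr2:129699125-129699903 just inside the gene, on the same stretch, and cKO had none. A WT peak of H3K4me3 with none in cKO was found for 0.475% of genes. Pdyn was lower in cKO at P21, and so was Grp. Cck was the only one of the 10 with H3K27ac, 876 bp in cKO and 214 bp in WT about 1 kb into the gene. Its H3K27me3 in cKO, 1399 bp in 2 peaks, covered the whole of that 876 bp H3K27ac peak and 31 bases of the printed promoter. A bulk peak list does not show whether 2 marks lie on the same molecules or in different cells.

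At Npy, Crh and Adcyap1, H3K27me3 was present in both genotypes and longer in cKO. Npy had 2737 bp in cKO, with a peak over all of its printed promoter (chr6:49821798-49824171, fold enrichment 10.8), against 694 bp in WT, of which one peak covered 184 of the 250 bases. Crh (chr3:19693401-19695396) had 1383 bp in cKO against 302 bp in WT. Adcyap1 (chr17:93198245-93206541) had 6647 bp in cKO with a longest peak of 5598 bp (fold enrichment 14.2), against a single peak of 3046 bp in WT (fold enrichment 8.59). H3K4me3 and H3K27me3 shared bases at 5 of the 10 genes in cKO (357 to 1205 bp) and at 3 in WT (94 to 435 bp). Vip, Tac2 and Cort had no peak of any mark within 1 kb in either genotype. About 2 kb before Tac2 the cKO lists held an H3K27ac peak of 232 bp and an H3K27me3 peak of 491 bp, and the WT lists none within 5 kb.

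**Figure D4:**
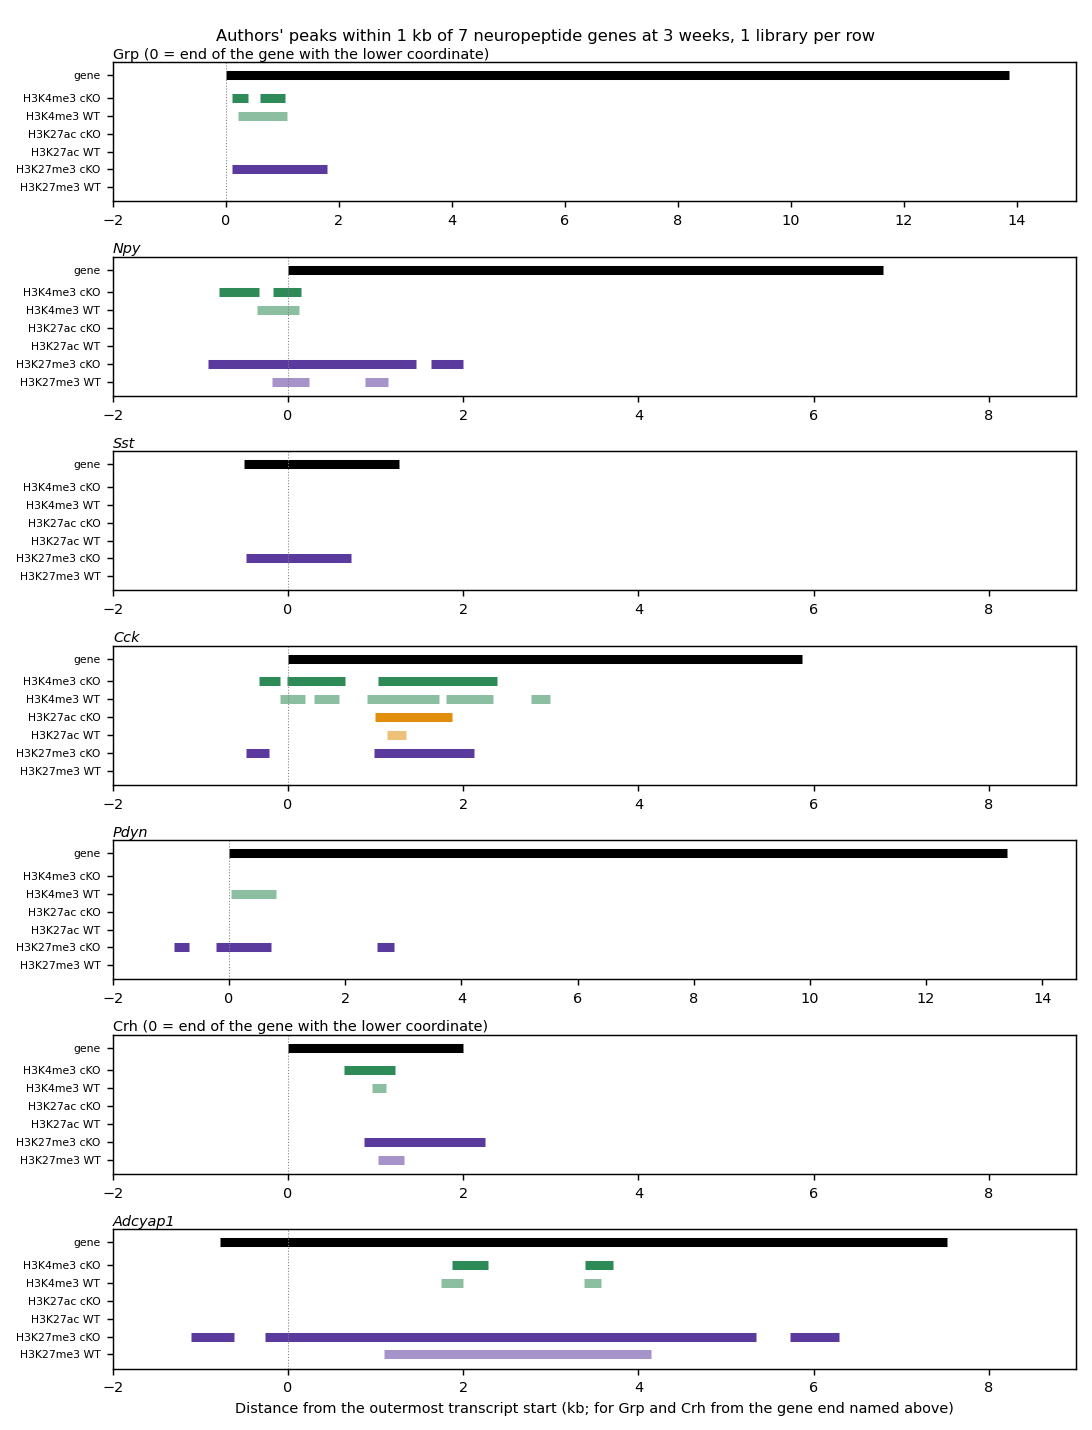
Authors' peaks within 1 kb of 7 peptide genes, by distance in kb from the outermost transcript start (for Grp and Crh from the gene end with the lower coordinate, as no start was used), 1 library per row and cKO above WT for each mark, with H3K4me3 in green, H3K27ac in orange and H3K27me3 in purple. H3K27me3 is present at all 7 in cKO and at Npy, Crh and Adcyap1 in WT.

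Set beside the RNA, the genes with H3K27me3 in cKO only included the 2 called lower at P21 (Grp and Pdyn), Cck, lower but not called, and Sst, whose groups overlapped. Of the 2151 tested genes with an H3K27me3 peak in cKO only, 8.0% were called lower and 5.21% higher, with a median log2 change of -0.03. Of the 11680 with a peak in neither genotype 3.48% were called lower and 2.16% higher. Of the 547 with a peak in both genotypes 4.39% were called lower and 7.5% higher, with a median of 0.17. Of the 3 peptide genes with H3K27me3 in both genotypes, Npy and Crh had a log2 change of 0.58 and 0.73 at P21 and Adcyap1 one of -1.13.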

How the data were processed

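The 10 genes and the lists of receptors, processing genes, other peptides and markers were chosen with earlier results of these data known. The authors deposited gene-level estimated counts, a table for each age; the submitters' processing notes name Salmon 1.0.0 and GRCm38. The sources used here do not say how transcripts were summed or whether strand was used. Tables of log2 fold changes, p-values and a mean-level score were also deposited, and the notes name DESeq2 1.26.0. Some adjusted p-values of 1 stand there for missing ones. ChIP peaks were called by the authors on single libraries against the input of the same genotype, with Bowtie2 2.3.5.1 named in the submitters' processing notes. MACS2 is version 2.2.5 in the notes but 2.2.7.1 in the headers, which set q-values to 0.01 at most. The deposited columns are a pileup signal, a fold enrichment ratio, and the −log10 of each p-value and q-value, per the file headers. Narrow calling can split a broad domain, so covered lengths are given.

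Estimated counts were rounded and fitted with edgeR 4.0.16 in R 4.3.3 (filterByExpr, TMM, robust quasi-likelihood F test, Benjamini-Hochberg, threshold 0.05), per age for cKO against WT and over all 10 libraries for the contrasts between ages. SE were derived from the F statistic. Alternatives were DESeq2 1.42.0, other scalings and filters, a replicate block, sex, 1 joint fit and leaving out each library; for the lists and their genes these were chosen after seeing the data. The steps were tested on simulated counts. Likeness to Grp used log2(CPM + 0.5) over genes of at least 5 mean CPM in the higher genotype. Peaks were assigned within 1 kb of a gene's RefSeq span (GRCm38.p6), with other windows of 5 and 20 kb. Promoters for 8 of the 10 genes came from RefSeq, with none for Grp and Crh. Motifs were searched on both strands. All 10 peptides were named, and of each list and age up to 4 called genes with the lowest adjusted p or else the closest, receptors beside their ligands, and the 5 genes most like Grp.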

Additional observations from a re-analysis of the deposited data

Results flagged for a closer look

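Grp was noted because the cKO effect differed between ages in the fit of all 10 libraries: it was 3.39 log2 units less negative at P21 than at E16.5 and lower in cKO at both. The difference was called in 12 of 16 alternatives, between 3.18 and 3.59. For Tac2 every cKO library was above WT at P21 and below WT at E16.5, a difference of 2.06 log2 units that was not called and ranged from 1.65 to 2.37.

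Vipr1 was lower in cKO at P21 and higher at E16.5, with a difference in effect of -2.39 that was called (edgeR adjusted p = 0.03943) and ranged from -2.67 to -2.08 over the 16 alternatives, 7 of which called it. Cpe was higher in cKO at P21 and lower at E16.5, with a difference of 1.22 (edgeR adjusted p = 0.03013; 1.12 to 1.37, called in 7 of 16 alternatives). Pcsk2 differed by 0.68 between ages (edgeR adjusted p = 0.0334; 0.61 to 0.75, called in 6 of 16). Leaving out either library of a genotype at P21, cKO replicate 2 at E16.5 or any WT library at E16.5 ended the calls of Vipr1, Cpe and Pcsk2, as did the replicate number as a block.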

How the results depend on the processing

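At P21 the 489 higher and 680 lower calls became 921 and 1228 with no filter and 155 and 350 in 1 fit of all 10 libraries, and 138 to 1244 and 293 to 1627 without single libraries, fewest without WT replicate 1 or 2 and most without cKO replicate 1, where 5 peptides (Npy, Sst, Vip, Tac2 and Cort) were called higher and 2 lower. At E16.5 the 2 and 19 became 412 and 731 with DESeq2, 24 and 105 with no filter, 5 and 31 with at least 10 counts in every library of a group, 32 and 146 in 1 fit of all 10, 1 and 3 with sex as a term, and 0 to 4 and 0 to 13 without single libraries (over 1.5 times off for each but cKO replicate 3). The difference between ages (81 and 140) became 427 and 812 with DESeq2, 123 and 235 with no filter, and 2 to 273 and 3 to 339 without single libraries (over 1.5 times off for each but cKO replicate 1 at E16.5). The calls for WT P21 against E16.5 stayed within 1.5 times throughout.

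With the replicate number as a block, edgeR gave 361 and 501 calls at P21, 0 and 0 at E16.5 (719 and 1231 at unadjusted p under 0.05) and 0 and 1 for the difference (1147 and 1223 unadjusted), and the list of other peptides had 3 calls at P21 and 2 between ages in WT. Deviations of same-numbered libraries correlated at -0.005 at P21 and at -0.531 to -0.063 at E16.5. At P21 this cannot decide whether the numbers pair samples, since deviations of 2 libraries from their mean mirror each other. At E16.5 no same-numbered libraries correlated positively. By Xist, same-numbered libraries were of the same sex in both genotypes, so at P21 the block cannot be told apart from sex.

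List counts moved as follows. At P21, receptors (4) had 2 under upper-quartile scaling, 8 with no filter, 1 in the joint fit and 1 to 7 without single libraries. Processing genes (2) had 0 in the joint fit and 0 to 6, other peptides (1) had 3 with DESeq2, 3 with no filter, 2 with the count minimum, 0 in the joint fit and 0 to 3, and interneuron genes (0) had 1 with DESeq2, 2 with no filter, 1 in the joint fit and 0 to 3. At E16.5 (all 0) receptors had 2 with DESeq2 and 1 in the joint fit, processing genes 4 with DESeq2 and 1 with no filter, with the count minimum and in the joint fit, and interneuron genes 3 with DESeq2. Between ages in WT, single libraries left 8 to 14 receptors and 2 to 6 other peptides. In cKO 8 of the 10 peptide genes had H3K4me3 within 20 kb, and 2 had H3K27ac within 5 kb and within 20 kb; in WT 0 kept H3K27ac at −log10 q of at least 5. Adcyap1 alone turned sign between ages in WT, to 0.058 without WT replicate 1 at P21 (-0.71 without WT replicate 2). Of the peptides' changes under all alternatives, 108 at P21 and 110 at E16.5 moved by less than the replicate spread and 2 at each age by more. At E16.5 Npy turned to -0.46 without cKO replicate 1, and Pdyn to 0.79 without WT replicate 2. For the difference of the cKO effect between ages, 139 moved by less than the spread of the WT libraries and 21 by more. The cause was not tested. Counts of 10 to 51 a library limit Crh and Cort at P21.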

Other observations

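The high Npy of cKO replicate 1 at E16.5 had few companions. Of 11424 genes with at least 5 CPM, Npy had the widest gap to the highest other E16.5 library, 7.35-fold, and 2 others passed 4-fold. These were Inhba, a subunit of activin, at 28.4 CPM against at most 6.56 CPM, and Prss12, a neuronal serine protease, at 19.2 CPM against at most 4.56 CPM. Both were picked after their values were seen. The library was female and had choroid plexus and ependyma markers at 7.40 CPM.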
